A study of Mus musculus with 5 samples.

Results

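The cells described here are the B cells of mouse mammary tumors treated with an antibody against VEGFA or with an isotype control. The cells were chosen by their own counts of marker transcripts. A B cell had 1000 or more UMIs (unique molecular identifiers, which count captured transcripts), at most 20% of them mitochondrial, at least 3 UMIs of Cd79a, Cd79b and Ms4a1 together, 0 of Cd3d, Cd3e and Cd3g, at most 1 of C1qa, C1qb and C1qc, and at most 3 of Krt8 and Krt18. The rule found 329 B cells among 25751 kept cells, or 1.28%, out of 30340 deposited cells; kept cells are those within the UMI and mitochondrial limits, whose upper UMI limit removed 375 cells. All mice, treated or control, were MMTV-PyMT animals on the FVB/N background, which develop mammary tumors because a viral MMTV promoter expresses the PyMT oncogene mainly in the epithelium of the gland. From 7 weeks of age, mice received 5 mg/kg intraperitoneally 2 times per week during 6 weeks of either the mouse IgG2a isotype antibody C1.18.4 (6 tumors of 6 mice in 2 pools) or the anti-VEGFA antibody B20-4.1.1 (9 tumors of 9 mice in 3 pools). Dissociated DAPI- cells of 3 tumors were tagged with oligonucleotides, pooled and captured together, so each of the 5 libraries held a single treatment and a difference between pools and one between treatments cannot be fully told apart.

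B cells are lymphocytes that carry an antibody on their surface as an antigen receptor, built from a heavy chain and either a kappa or a lambda light chain and coupled to the signaling pair Cd79a and Cd79b. Naive B cells make IgM and IgD together from the same rearranged gene, recirculate through lymphoid organs, and display antigen to T cells on MHC class II. After activation they may switch to IgG or IgA in germinal centers and mature into plasma cells, which secrete antibody, lower MHC class II and lose Ms4a1.

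Cd79a (GRCm38 chr7:24897381-24902197, plus strand) and Cd79b (chr11:106311341-106314762, minus strand) encode the receptor's signaling subunits, and Ms4a1 (chr19:11249675-11266241, minus strand) encodes the surface protein CD20. These genes chose the cells, so their levels are a description: Cd79a was seen in 326, Cd79b in 316 and Ms4a1 in 304 of the 329 cells, and 292 cells held all 3. The median marker sum was 15 UMIs, with a range of 3 to 40. Just inside the threshold lay 4 cells with 3 marker UMIs and 3 cells with 4, and just outside lay 3 cells with 2 and 23 cells with 1. Of 406 kept cells with enough marker UMIs, 77 were removed, 61 of them for a Cd3 UMI, 10 for keratin and 7 for C1q (1 failed more than one limit).

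B cells were small libraries. Their median was 2419 UMIs (range 1006 to 21956), against 3101 in T cells, 4404 in macrophages and 10271.5 in epithelial cells, so 174 of the 329 would be lost at a floor of 2500 UMIs. The comparison cells were 4088 T cells (at least 2 Cd3 UMIs), 9600 epithelial cells (at least 10 Krt8 and Krt18 UMIs) and 1743 macrophages (at least 3 C1q UMIs), all defined with no B marker UMI. In all 329 B cells the tagging oligos of the cell's own tumor were the most abundant, at a median of 89.5% of the cell's oligo UMIs and a lowest value of 49.9%. No barcode occurred in more than one tumor of a pool, 94 occurred in more than one pool, and 1 of these was a B cell's.

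The B cells were spread very unevenly over the tumors. The isotype tumors held 1, 3 and 4 B cells in pool 1 and 1, 2 and 6 in pool 2, 17 in all. The B20-4.1.1 tumors held 4, 2 and 184 in pool 1, 48, 4 and 69 in pool 2, and 0, 1 and 0 in pool 3, 312 in all. Tumor 3 of pool 1 and tumors 1 and 3 of pool 2 therefore held 301 cells, or 91.5% of all B cells, and no other tumor of either treatment held more than 6.

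As a share of kept cells, isotype tumors ran from 0.0400% to 0.228% with a median of 0.114%, and B20-4.1.1 tumors from 0% to 10.1% with a median of 0.303%. The highest share, in tumor 3 of B20-4.1.1 pool 1, was 10.1% (exact binomial 95% interval 8.74 to 11.6), followed by 6.38% (4.74 to 8.37) in tumor 1 and 5.53% (4.33 to 6.95) in tumor 3 of pool 2. The 2 tumors without a B cell had 1288 and 1432 kept cells, for which 0 allows a share of up to 0.233% and 0.209% (3 counts of the total). These intervals cover counting error only. The 3 tumors with most B cells were also the richest in T cells, at 60.7%, 68.6% and 69.3% of kept cells, against 3.56% to 22.8% in the other 12, and the poorest in epithelial cells, at 7.05% to 11.6% against 28.1% to 63.7%.

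**Figure D1:**
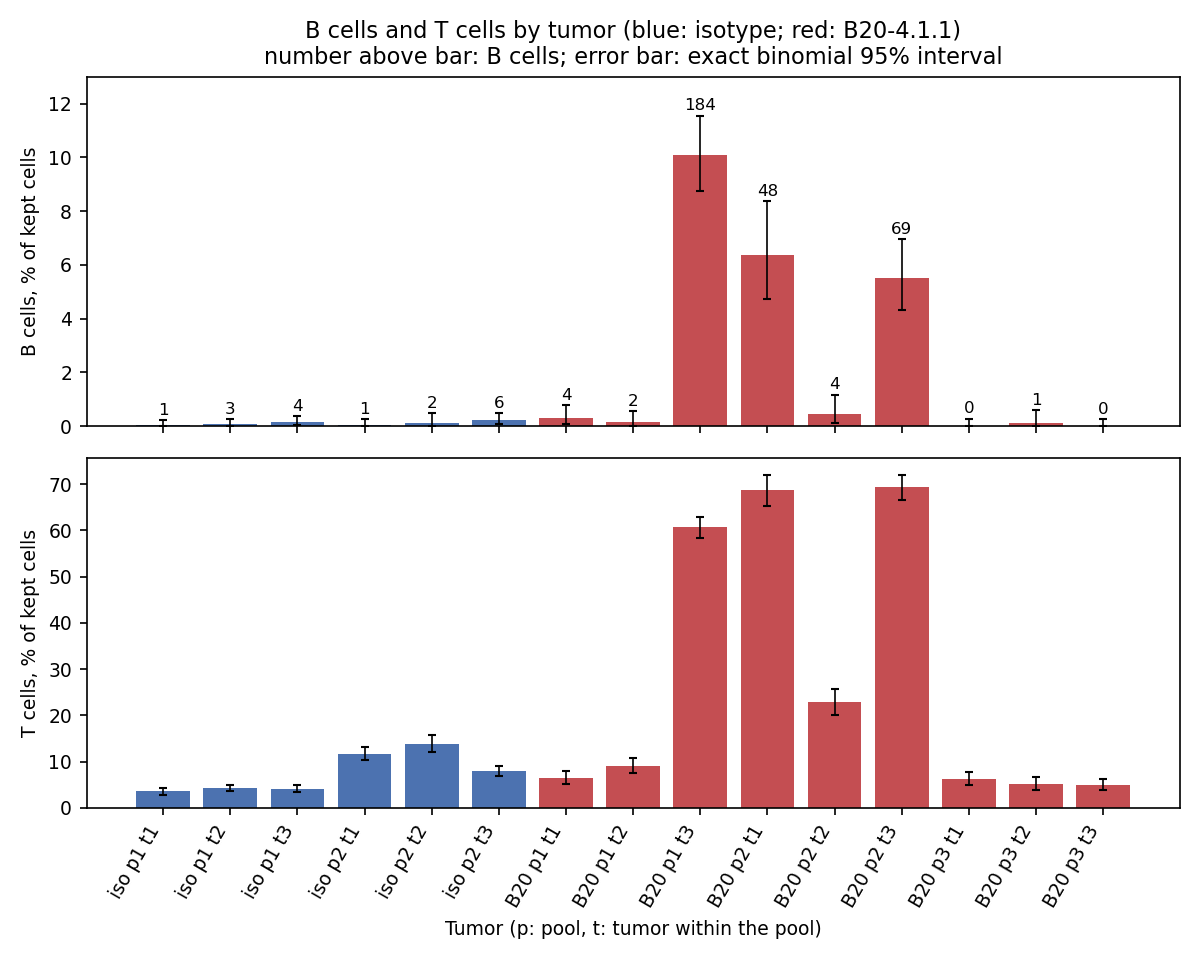
B cells (top) and T cells (bottom) as a percentage of kept cells in each of the 15 tumors, isotype in blue and B20-4.1.1 in red, with exact binomial 95% intervals and the number of B cells above each bar. B cells exceed 5% only in 3 B20-4.1.1 tumors, and the same 3 tumors have T cells above 60%.

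Treatment was compared over tumors. The mean share of kept cells was 0.114% ± 0.0704 (SD, n = 6) with isotype and 2.56% ± 3.78 (SD, n = 9) with B20-4.1.1, a difference of 2.44 percentage points (exact two-sided permutation test, p = 0.0911, adjusted p = 0.137 over 3 shares). Of the 9 B20-4.1.1 tumors, 5 lay above every isotype tumor and the groups overlapped. Among non-epithelial cells (at most 3 Krt8 and Krt18 UMIs) the shares were 0.340% ± 0.279 (SD, n = 6) and 3.25% ± 4.39 (SD, n = 9), with an exact permutation p of 0.0843 and an adjusted p of 0.137. None of these differences passed the threshold of 0.05, and the smallest p that 6 against 9 tumors allow is 0.0002.

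As a share of B plus T cells, B cells made up 1.80% ± 1.16 (SD, n = 6) with isotype and 4.49% ± 4.74 (SD, n = 9) with B20-4.1.1 (difference 2.68 points, exact permutation p = 0.216, adjusted p = 0.216). There were 6.02 T cells per B cell in tumor 3 of pool 1, and 10.8 and 12.5 in tumors 1 and 3 of pool 2, against 21.2 or more in every other tumor with a B cell. With the pool as the unit (2 against 3), each of the 3 differences had an exact permutation p of 0.4, and this design cannot go below 0.1. Pool 3 of B20-4.1.1 decided the calls: without its 3 tumors the difference in kept cells was 3.70 points (exact permutation, adjusted p = 0.00649), in non-epithelial cells 4.44 points (exact permutation, adjusted p = 0.00649) and in B plus T cells 4.58 points (exact permutation, adjusted p = 0.0368). These p-values take the tumor as the unit, although tumors of a pool share a library. The pool left out held 0, 1 and 0 B cells.

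The identity of the cells was read from genes outside the rule, as a description with no test since the rule chose the cells. Levels are CPM, the UMIs of a gene summed over cells and scaled to the same total in every cell type, and shares of cells with a UMI are given after each cell was thinned to 1000 UMIs. Across all 11931 genes with a UMI in B cells, 52.0% had a higher CPM in B than in T cells and 4.90% were at least 10-fold higher. Against that background, all 16 genes of a B lineage list and all 15 of a receptor signaling list were higher in B than in T cells, 10 of each list by at least 10-fold. Conversely 0 of 10 T cell genes and 0 of 6 detected NK cell genes were higher in B than in T cells.

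Transcription factors of the lineage were among the leading genes. Ebf1, a pioneer factor that commits progenitors to the B lineage, was at 2344 CPM in B cells and 3.41 in T cells, with a UMI in 88.4% of thinned B cells (84.5 to 91.7) and 0.122% of T cells. Pax5, which maintains B cell identity, was at 278 CPM against 0.197, and Pou2af1, the octamer coactivator, at 214 against 2.03.

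Other leading genes were specific to different degrees. Ly6d, a surface protein of B cell progenitors and mature B cells, was at 3416 CPM in B cells, 8.59 in T cells and 130 in epithelial cells. Bank1, a scaffold of receptor signaling, was at 567 CPM and Fcmr, the IgM Fc receptor, at 581, both under 1 in T cells. Mzb1, a chaperone of IgM assembly, was at 486 CPM in 206 cells, so it did not rest on the cells with plasma cell genes. Less exclusive were Mef2c, a transcription factor at 1416 CPM with 415 in macrophages, and the tetraspanin Cd37 at 967 with 175 in T cells.

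The receptor's signaling chain was present from surface to adaptor. Among coreceptors, Cd22, an inhibitory lectin, was at 166 CPM and Cr2, the complement receptor CD21, at 384, both under 1 CPM in T cells. Among kinases, Lyn was at 425, Syk at 239, Btk at 227 and Blk at 91.4 CPM. The adaptor Blnk was at 305 CPM in B cells and 1.44 in T cells. Lyn was not restricted to B cells, with 572 CPM in macrophages.

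**Figure D2:**
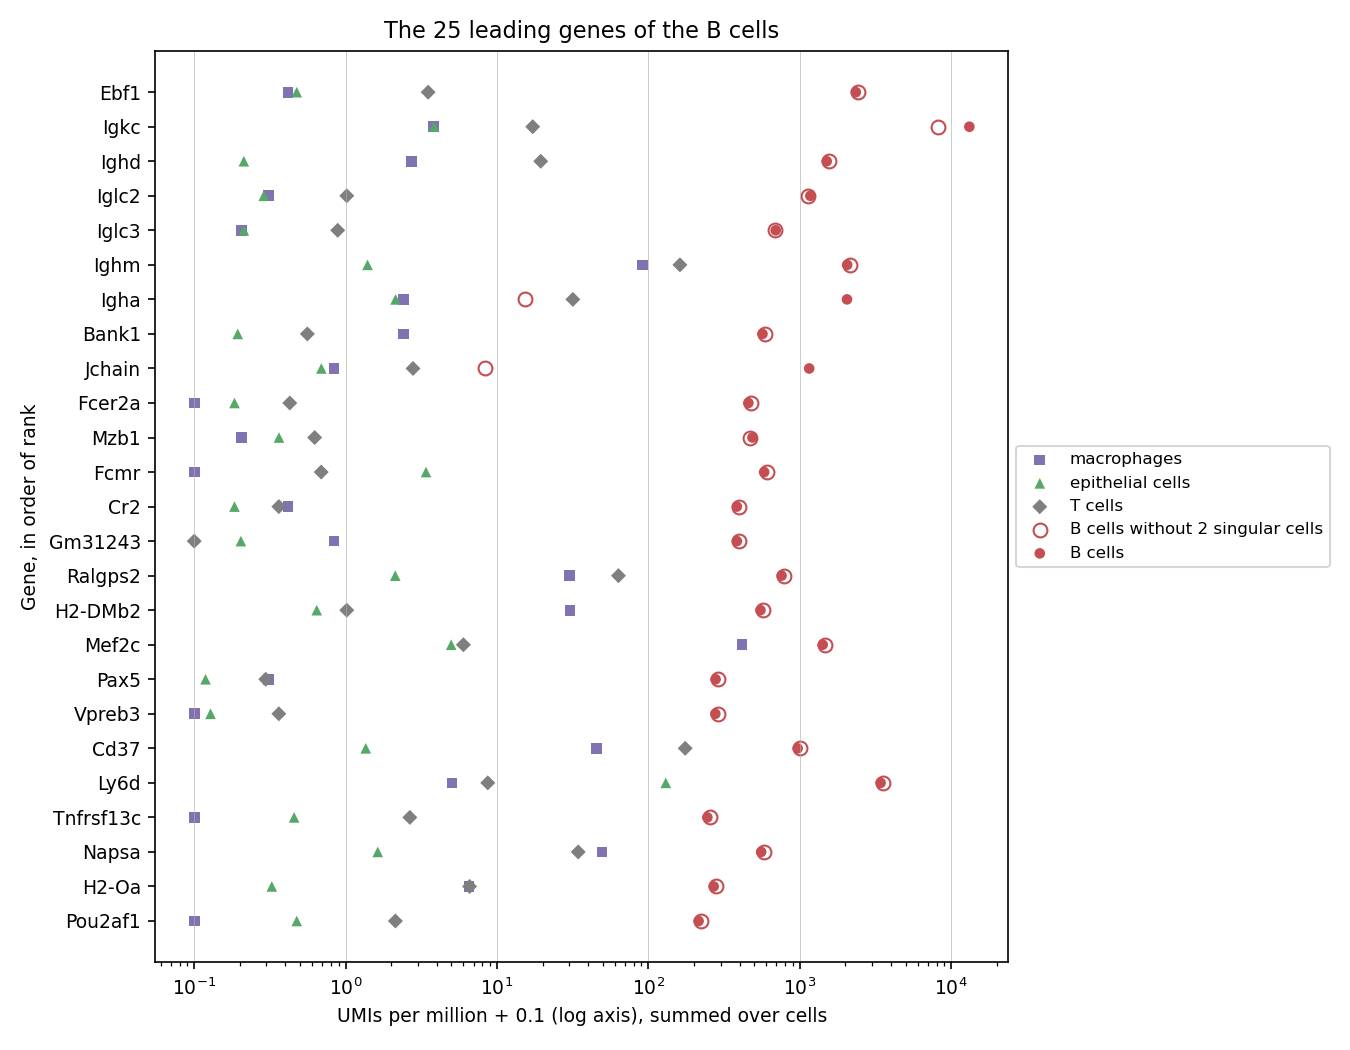
Summed level (CPM plus 0.1, log axis) of the 25 genes that lead in B cells over all other kept cells, in B cells, in B cells without the 2 singular cells described in the text, in T cells, in epithelial cells and in macrophages. Most genes differ by 10-fold or more from the other cell types, Mef2c in macrophages and Cd37 in T cells being closer, and Igha and Jchain fall below 16 CPM when the 2 cells are left out.

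Antigen presentation genes were abundant. All 9 MHC class II genes exceeded their T cell level by at least 10-fold, and their summed level, 20610 CPM, was close to the 21856 CPM of macrophages. Cd74, the invariant chain, reached 10734 CPM, H2-Aa 4818 and H2-Ab1 3348, whereas H2-Eb1 was at 131. The peptide exchange genes H2-DMa and H2-DMb2 were at 430 and 550 CPM, and H2-DMb2 was at 30.3 in macrophages. The regulator Ciita was at 158 CPM.

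Genes of mature, recirculating B cells accompanied them. Of 12 such genes, 10 were higher in B than in T cells, the exceptions being the sphingosine phosphate receptors S1pr1 (140 CPM in B cells, 225 in T cells) and S1pr4 (30.5 and 39.7). Fcer2a, the low-affinity IgE receptor CD23, was at 457 CPM and in 35.0% of thinned B cells (29.8 to 40.4) with 0% in T cells. Tnfrsf13c, the receptor for the survival factor BAFF, was at 245 CPM and Cxcr5, the follicle homing receptor, at 111. Ccr7 (324 CPM) and Klf2 (924 CPM), which T cells also use for recirculation, were at 211 and 646 CPM in T cells.

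Lists of other B cell states gave mixed counts, beside the 52.0% of all genes with a UMI in B cells that were higher there than in T cells. Of 12 germinal center and cycle genes, 3 were higher in B than in T cells, with a sum of 494 CPM against 1020. In the 3 tumors with most B cells this sum was 304, 273 and 1104 CPM in B cells against 439, 523 and 360 in T cells. The third of these tumors holds the B cell with most Xcl1, described further on. On this list S1pr2, a receptor that holds cells in the germinal center, and Gcsam had 0 UMIs in all 329 cells, and Bcl6 was at 40.6 CPM in 28 cells. Of 12 marginal zone or B-1 genes, 9 were higher in B than in T cells and 2 at least 10-fold, with a sum of 1292 CPM against 417. Most of that sum came from Mzb1 and Cr2, given above, and Plac8 (246 CPM in B cells, 57.8 in T cells), while Cd5 and Spn, which B-1 cells share with T cells, had 2 and 6 UMIs. Of 11 regulatory or inhibitory genes, 7 were higher in B than in T cells, with a sum of 881 CPM against 276. On that list the receptors Cd22, at 166 CPM, and Fcrl1, at 158, were among the higher genes, whereas the cytokine Il10 had 0 UMIs, as did Il6 of the cytokine list. Ltb, the lymphotoxin subunit that B and T cells both make, was the abundant cytokine gene at 1314 CPM against 1025 in T cells.

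**Figure D3:**
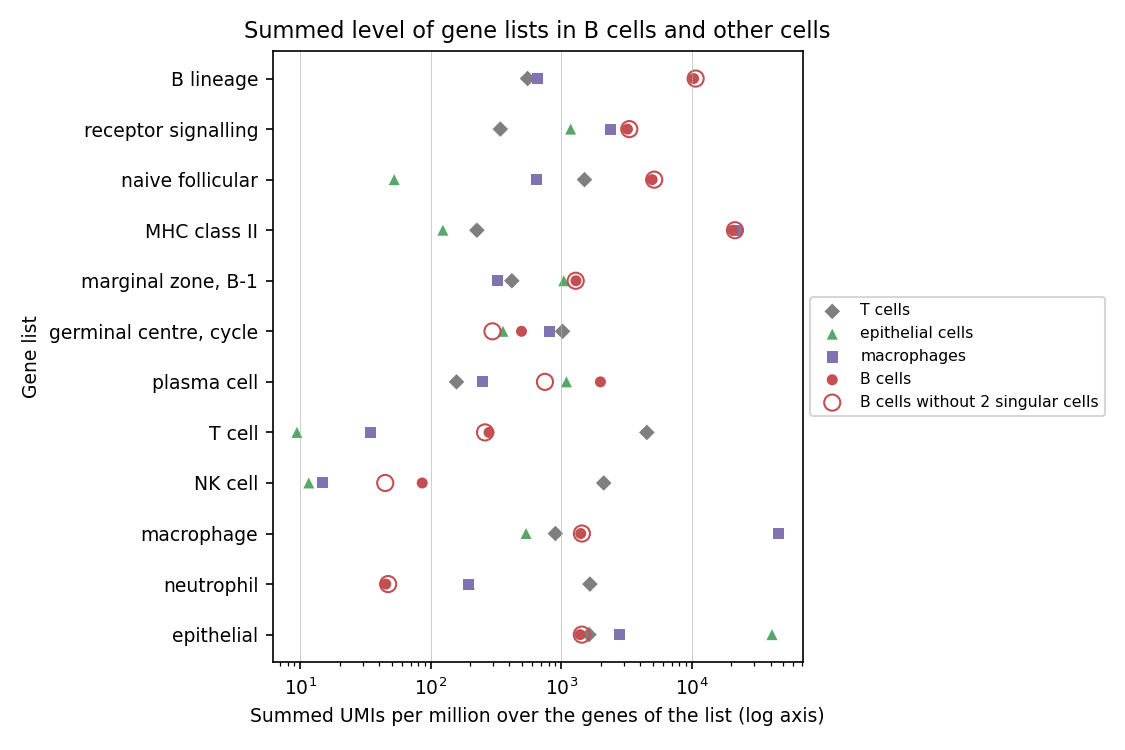
Summed level (CPM, log axis) of 12 gene lists in B cells, in B cells without the 2 singular cells, in T cells, in epithelial cells and in macrophages. B cells lead in the B lineage, receptor signaling, naive follicular and marginal zone or B-1 lists and match macrophages in MHC class II. In the marginal zone or B-1 list they are at 1292 CPM against 1042 in epithelial cells. They lead in the plasma cell list only with the 2 singular cells (1990 CPM, 748 without them, 1092 in epithelial cells). Their T cell, NK cell and neutrophil lists lie at least 10-fold under the level of all T cells together. In the 3 tumors with most B cells, the neutrophil list was at 62.4, 29.5 and 9.20 CPM in B cells and 53.8, 5.74 and 11.1 in T cells. The NK cell list there was at 58.1, 29.5 and 198 CPM in B cells and 519, 422 and 441 in T cells.

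Genes of other cell types were measured in the same way. Of 10 epithelial genes all had a UMI in B cells, and their sum was 1391 CPM in B cells, 1627 in T cells and 41044 in epithelial cells. Csn3, a milk casein, was seen in 42.6% of thinned B cells and 37.3% of thinned T cells, and the source of this RNA was not tested. The 10 T cell genes summed to 279 CPM in B cells against 4515 in T cells, of which Cd2 gave 155 and Trac 9.03. Of 10 macrophage genes 8 were detected, with Adgre1 and Fcgr1 at 0, Lyz2 at 35.0 and Apoe at 444 CPM. Ctss, a protease of antigen processing on the same list, was at 790.

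Heavy chain genes showed IgM and IgD together. Ighm (GRCm38 chr12:113418558-113422730) was seen in 311 cells at 2055 CPM and Ighd (chr12:113406604-113416324) in 301 cells at 1505 CPM, 286 cells held both, and 3 held neither. The Ighd share was 73.6% of thinned B cells (68.4 to 78.2) and 1.05% of thinned T cells, while Ighm was also found in 12.9% of T cells against 79.9% of B cells. The Ighd share as deposited was 88.2% with isotype (15 of 17 cells), 92.9% in tumor 3 of pool 1, 87.5% in tumor 1 of pool 2 and 94.2% in tumor 3 of pool 2, with intervals that overlap. Ighd levels in those 3 tumors, 1524, 1593 and 1546 CPM, lay within each other's counting intervals.

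Switched classes were rare. Ighg1, Ighg2c and Ighe had 0 UMIs, Ighg2b had 7 in 4 cells, and Ighg3 had 52 in 41 cells with at most 3 per cell. Of those 41 cells, 40 also held Ighm or Ighd. In only 3 cells did switched classes exceed IgM and IgD together.

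Igha and Jchain ranked among the 25 leading genes but rested on one cell. A cell of tumor 1 in B20-4.1.1 pool 1 held 1802 Igha, 1015 Jchain and 4707 Igkc UMIs among 13598, with 33 Mzb1, 52 Xbp1, 7 Cd79a, 9 Cd79b, and 0 Ms4a1, Ighm, Ighd and H2-Aa UMIs. It carried 99.2% of the Igha and 99.3% of the Jchain UMIs of the B cells. Without this cell and the B cell with most Xcl1, described further on, the plasma cell list was at 748 CPM in place of 1990 CPM. In all, 5 kept cells had at least 10 Jchain UMIs and 4 of them lay outside the rule, 3 with fewer than 3 marker UMIs.

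The other of the 5 with B markers came from the same tumor and was left out for 1 Cd3 UMI. It held 24552 UMIs, with 2859 Igha, 1872 Jchain and 11160 Igkc. Both cells had Igkv10-96 as their most abundant light chain V gene, at 75 and 104 UMIs, with Iglv1 next at 6 and 29. Their most abundant heavy V genes differed, Ighv1-26 at 3 and Ighv1-41 at 9 UMIs, in a family of close copies whose reads could be split. The V gene they shared lies on GRCm38 chr6:68631963-68632442, minus strand, and its first 300 coding bases, joined over 2 exons in the reference strain (GENCODE M21, chr6:68632010-68632430), are shown as the sequence behind these counts, all in lower case since no base is singled out.
Igkv10-96: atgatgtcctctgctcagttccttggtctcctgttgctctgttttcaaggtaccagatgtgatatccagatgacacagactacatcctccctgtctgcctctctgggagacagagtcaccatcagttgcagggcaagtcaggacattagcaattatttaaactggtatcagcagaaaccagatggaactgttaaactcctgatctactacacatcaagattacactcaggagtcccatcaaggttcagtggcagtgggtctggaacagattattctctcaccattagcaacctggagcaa

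A further cell stood apart. The B cell with the most UMIs, 21956 from tumor 3 of B20-4.1.1 pool 2, held 126 Xcl1, 12 Ncr1, 11 Klrk1, 22 Mki67 and 34 Top2a UMIs beside 16 marker UMIs, 7 Ighm and 19 Trbc1. It carried 95.7% of the Mki67 and 97.1% of the Top2a UMIs of all B cells. The germinal center and cycle list was at 494 CPM with both singular cells and 296 without them. No doublet caller was run, and whether such cells hold more than one cell was not tested.

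Light chains were counted from Igkc (GRCm38 chr6:70726435-70726966) and from Iglc1, Iglc2, Iglc3 and Iglc4. Igkc was seen in 325 cells with a median of 19 UMIs, a lambda constant gene in 302 with a median of 4, and both in 299. Among 326 cells with at least 5 light chain UMIs, lambda exceeded kappa in 15, or 4.60% (exact binomial 95% interval 2.60 to 7.48). There was no gap between the kinds: 293 cells had under 40% lambda, 23 had 40 to 60% and 10 had more. Of the 311 cells where kappa led, 286 still held a lambda UMI. In T cells Iglc2 and Iglc3 were at 0.918 and 0.787 CPM, against 1174 and 693 in B cells.

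By origin, lambda led in 3 of 17 isotype cells, in 8 of 181 from tumor 3 of pool 1, in 3 of 48 from tumor 1 of pool 2 and in 0 of 69 from tumor 3 of pool 2, which allows up to 5.21% by the exact binomial interval. With 17 isotype cells the interval of their share, 3.80 to 43.4%, includes that of all B cells.

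**Figure D4:**
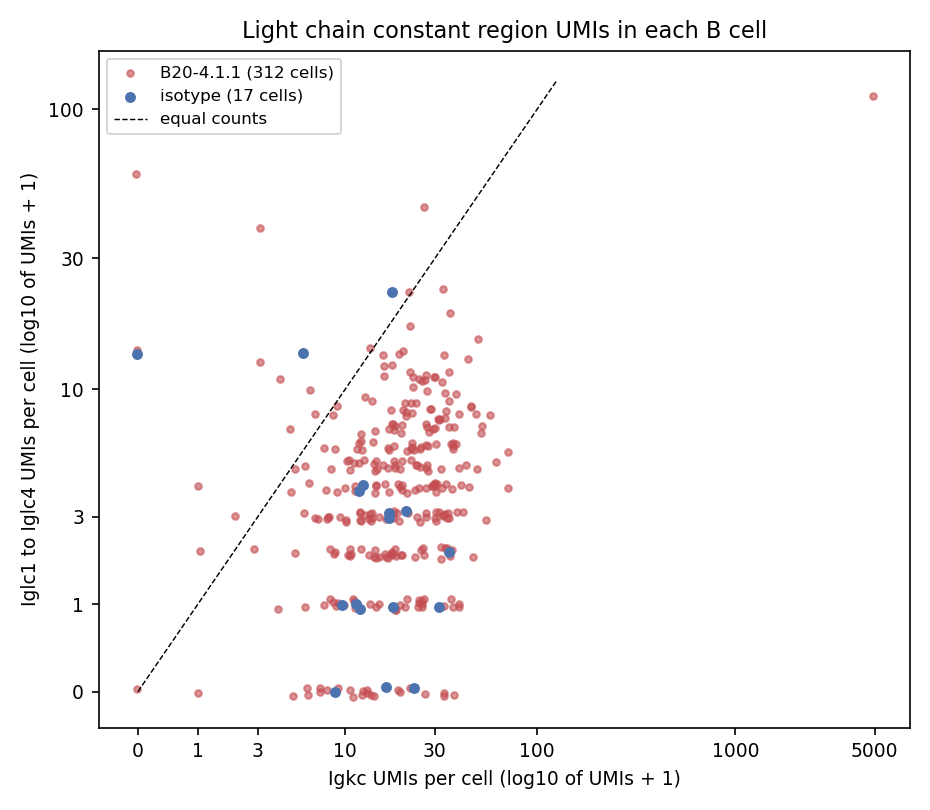
Kappa (Igkc, x axis) and lambda (Iglc1 to Iglc4, y axis) constant region UMIs of each of the 329 B cells on log10(UMIs + 1) axes, with small random offsets and a dashed line at equal counts. Most cells lie below the line with fewer than 30 lambda UMIs, 15 of the 326 cells with 5 or more light chain UMIs lie above it, and the IgA cell stands alone at 4707 Igkc UMIs.

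The lambda UMIs were 126 of Iglc1, 1040 of Iglc2, 614 of Iglc3 and 2 of Iglc4. Iglc2 (GRCm38 chr16:19198396-19200351) and Iglc3 (chr16:19065230-19065681), both on the minus strand, are near copies in their coding sequences, so counts split between them are uncertain. Their coding sequences differ at 11 of 312 bases (96.5% identity), whereas Iglc2 and Iglc1 share 54.5% without gaps. The pair is shown because their coding sequences differ at so few bases. Both genes extend past their coding bases, and that part was not compared. From GENCODE M21, the first 300 coding bases at chr16:19198551-19198850 and chr16:19065380-19065679, which hold all 11 differences, read 5′ to 3′ as follows, with capitals where the copies differ.
Iglc2: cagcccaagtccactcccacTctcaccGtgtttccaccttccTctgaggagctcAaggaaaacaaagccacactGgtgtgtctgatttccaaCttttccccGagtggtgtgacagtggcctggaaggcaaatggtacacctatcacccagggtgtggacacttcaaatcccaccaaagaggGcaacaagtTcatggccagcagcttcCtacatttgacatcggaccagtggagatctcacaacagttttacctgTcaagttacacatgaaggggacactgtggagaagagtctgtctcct
Iglc3: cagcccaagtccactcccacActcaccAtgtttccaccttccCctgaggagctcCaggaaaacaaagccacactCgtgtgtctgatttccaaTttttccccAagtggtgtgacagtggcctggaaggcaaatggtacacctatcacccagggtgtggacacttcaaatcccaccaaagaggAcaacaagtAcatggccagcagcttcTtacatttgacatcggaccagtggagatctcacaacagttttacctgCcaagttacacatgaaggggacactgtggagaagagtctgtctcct

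Variable genes were sparse, as 3' libraries rarely reach them. A heavy V gene was seen in 86 cells (124 UMIs, 47 of 185 genes), a kappa V gene in 67 (158 UMIs, 38 of 160 genes) and a lambda V gene in 15 (22 UMIs). The V gene seen in most cells was Iglv3, a lambda gene, in 12 cells from 4 tumors with 14 UMIs. Ighv8-11 led the heavy genes with 1 UMI in each of 10 cells from 3 tumors, followed by Ighv2-2 in 7 and by Ighv5-17 and Ighv3-2 in 5 each. Igkv10-96 led the kappa genes with 7 cells and 82 UMIs, 75 of them in the IgA cell, and 109 UMIs of it lay outside the B cells. Of the 47 heavy genes seen, 25 were seen in a single cell, and 13 cells held more than one heavy V gene.

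The 3 tumors with 48 or more B cells could be set beside each other. Ccr7, the lymph node homing receptor, was at 202 CPM (exact Poisson 95% interval 164 to 248) in tumor 3 of pool 1, 384 (286 to 503) in tumor 1 of pool 2 and 552 (458 to 660) in tumor 3 of pool 2. Klf2, the quiescence factor, ran from 603 to 1062 and 1440 CPM in the same order. T cells of the same tumors gave 236, 339 and 509 CPM for Ccr7 and 654, 1028 and 1375 for Klf2. The order of the tumors was the same in both cell types, although the B cell intervals for Ccr7 overlapped between the second and the third, and tumors 1 and 3 of pool 2 shared a library.

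Fos, an immediate early gene, followed the same order in B cells. It was at 545 (480 to 616), 1291 (1107 to 1497) and 1831 (1656 to 2020) CPM, with intervals that did not overlap. In T cells Fos was lower, at 243, 190 and 382 CPM. Cr2 was at 456 (397 to 522), 420 (318 to 545) and 295 (227 to 376) CPM, with intervals that overlapped except between the first and the third. H2-Aa was at 4556, 5968 and 5204 CPM, with intervals that did not overlap. Each value comes from one tumor, so these differences have no replicate check.

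**Figure D5:**
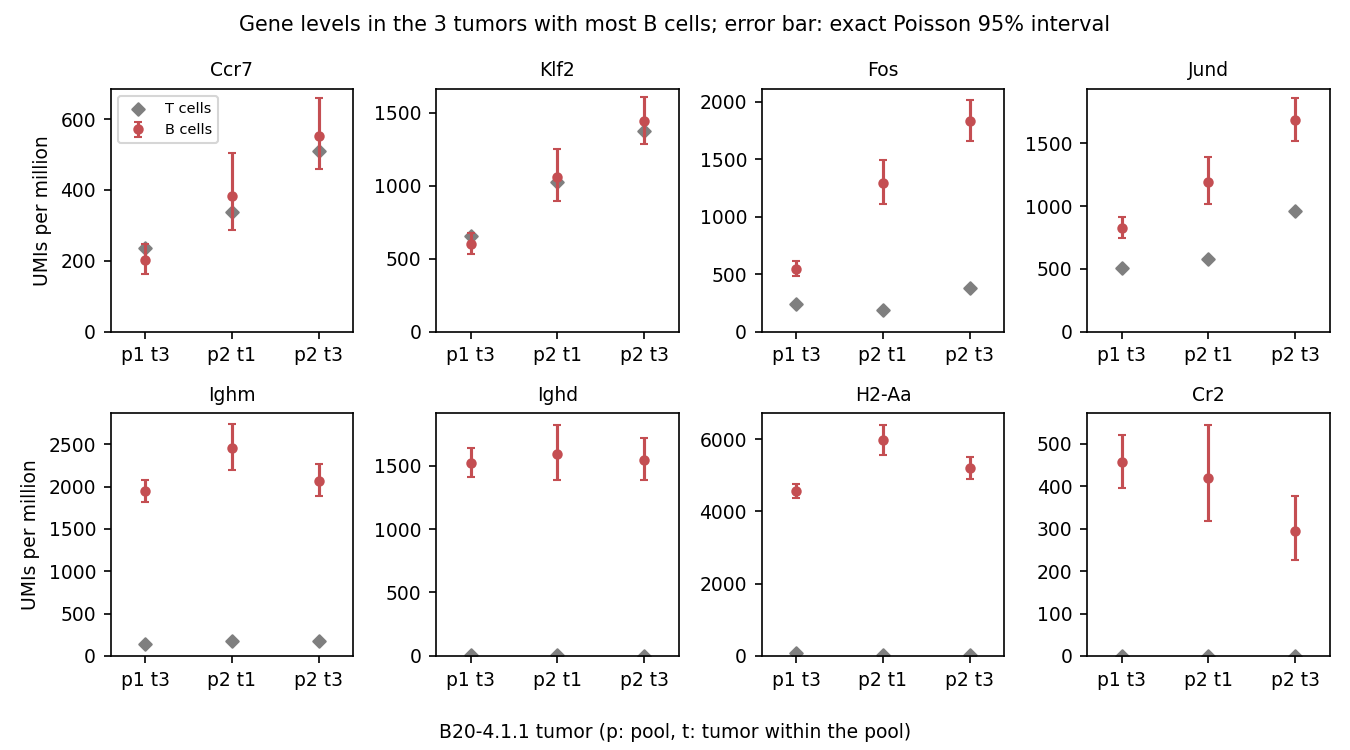
Level (CPM) of 8 genes in the B cells (red, with exact Poisson 95% intervals for counting error) and T cells (grey) of the 3 B20-4.1.1 tumors with most B cells. Ccr7 and Klf2 take similar values in both cell types and rise from tumor 3 of pool 1 to tumor 3 of pool 2, whereas Ighd stays level and Cr2 is lowest in the third tumor.

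In the T cells of those tumors, Lef1, a transcription factor of naive T cells, was higher than in the other 12. Lef1 was at 471 to 537 CPM there and at 29.7 to 97.7 in the other tumors. The cytotoxic gene Gzmb was at 51.3 to 182 CPM against 912 to 5603. These are the values beside which the B cells occurred, and their part in the B cell share was not tested.

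Treatment was then compared within B cells, gene by gene. The planned minimum of 5 B cells per tumor was met by 1 isotype tumor, so that fit was not made. A minimum of 3 B cells is reported in its place (3 isotype tumors with 3, 4 and 6 cells, 5 B20-4.1.1 tumors with 4, 184, 48, 4 and 69). With edgeR's quasi-likelihood test, 0 of 184 genes (0%) passed an adjusted p of 0.05, and 34 had an unadjusted p under 0.05. Cd79a and Cd79b, which the rule used to choose the cells, were tested and were among these 34. DESeq2 called 2, both lower with B20-4.1.1, among them the mitochondrial mt-Co3. The depth of the isotype sums, 8129 to 11339 UMIs, left most B cell genes untested: 4 of 9 MHC class II genes and 0 of 15 receptor signaling genes entered.

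Summed by pool, the planned test was likewise not met, since pool 3 of B20-4.1.1 held a single B cell. Over the other pools (2 against 2, chosen after seeing the data), edgeR called 1 of 2980 genes, or 0.0336%, with 329 at an unadjusted p under 0.05. It was Actg1, cytoplasmic gamma actin, higher with B20-4.1.1 by 1.80 ± 0.34 on the log2 scale (SE, edgeR adjusted p = 0.0129). No gene of the lists passed in this fit. Without the filter on low counts 130 of 11930 genes passed, all of them higher with B20-4.1.1. Cd79a and Cd79b, which the rule used to choose the cells, were among the 130. Many of the 130 were ribosomal protein genes, such as Rps24 (log2 difference 1.02). Genes of the lists were 16 of the 130, a count for which the number of list genes tested was not taken. The 3 lowest adjusted p of the fit were those of Igha (edgeR, 2.8e-36), Igkc and Jchain, genes of the IgA cell. The 16 also held H2-Aa (log2 difference 1.44, edgeR adjusted p = 1.57e-10), Cd74 and Ebf1. The B cells of all isotype tumors held 3251 CPM of H2-Aa (exact Poisson 95% interval 2684 to 3903) and those of all B20-4.1.1 tumors 4883 (4735 to 5033). Such intervals of a whole group cover counting error only and not the spread between tumors or pools. Of the 312 B20-4.1.1 cells, 301 came from 3 tumors, whose own H2-Aa intervals did not overlap. The filtered fit over pools gave H2-Aa a log2 difference of 0.93 ± 0.24 (SE, edgeR adjusted p = 0.112). That fit left out pool 3 of B20-4.1.1 and rescaled the pools (TMM), so its differences are not ratios of these CPM. Ighd was at 1498 CPM (1122 to 1960) and 1506 (1424 to 1591), and Ccr7 at 424 (237 to 699) and 320 (283 to 360). For Ccr7 the same fit gave a log2 difference of -0.04 ± 0.49 (SE, edgeR adjusted p = 0.992). The median log2 difference was 0.73 for the 9 MHC class II genes, 0.77 for 14 receptor signaling genes and -0.07 for 9 hypoxia genes, against 0.23 over all genes tested. The isotype side of these values is 17 cells.

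Promoters of the B cell genes were searched for 2 motifs on both strands, in RefSeq windows of 250 bases before to 50 after the start (GRCm38.p6). Of the 48 leading, lineage and receptor genes, 34 had a window. The octamer ATGCAAAT, the site that Pou2f2 and Pou2af1 are known to use, was found in 2 of these genes, Blnk and Vpreb3, or in 4.65% of the genes' windows against 1.74% of all 32851 windows. The palindromic Ebf1-type motif, whose letters are the capitals of the Cd22 sequence with any base at its 2 middle positions, was found in Cd22 and Foxo1, likewise in 4.65% of the genes' windows, against 0.904% of all windows. These are matches of letters and not sites. Vpreb3, a surrogate light chain partner, was at 276 CPM in 137 cells, and Cd22 at 166 CPM in 100 cells. The 250 bases before the start are shown for Vpreb3, a leading gene, and for Cd22, of the receptor signaling list. The match is in capitals, and the windows lie at chr10:75948050-75948299 (plus strand) and chr7:30879029-30879278 (minus strand).
Vpreb3: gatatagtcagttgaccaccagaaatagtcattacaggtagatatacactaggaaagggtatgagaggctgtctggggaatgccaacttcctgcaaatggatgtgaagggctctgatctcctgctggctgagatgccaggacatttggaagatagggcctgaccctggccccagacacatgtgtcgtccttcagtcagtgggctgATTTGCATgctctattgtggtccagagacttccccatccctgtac
Cd22: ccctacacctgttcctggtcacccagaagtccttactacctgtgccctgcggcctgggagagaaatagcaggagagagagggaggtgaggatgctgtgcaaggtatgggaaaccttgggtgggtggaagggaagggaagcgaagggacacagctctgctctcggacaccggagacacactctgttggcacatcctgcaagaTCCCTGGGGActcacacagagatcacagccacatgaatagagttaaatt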

How the data were processed

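Single-cell RNA was measured with the 3' gene expression chemistry in 5 pools of 3 tumors. The values are UMI counts, deposited by the authors per tumor as 10x matrices of 31053 genes and 12 tagging oligos that carry the header of Cell Ranger 6.1.2. The submitters' processing notes name bcl2fastq, Seurat 4.3.0 and mm10. Tumors were assigned by the labels, and gene UMIs ranged from 4014509 to 23726246 per tumor. From the counts, cells were filtered and gated with the rule given above, no doublet caller was run, and cells were thinned to 1000 UMIs for shares of cells with a UMI. Shares were compared over tumors by exact two-sided permutation over 5005 splits, with Benjamini-Hochberg adjustment over 3 shares. Gene tests used edgeR 4.0.16 (TMM, filterByExpr, quasi-likelihood) on counts summed over cells, with DESeq2 1.42.0 and limma 3.58.1 as alternatives, and were tested on simulated data. The p-values measure the spread between tumors, or between pools where the pool was the unit, and tumors of a pool share a library. The named genes are the 25 with the highest log2 ratio of B cell CPM plus 10 to that of other kept cells plus 10, at 100 CPM or more and without the gate genes, the 5 heavy and 5 light chain V genes found in most B cells, up to 5 genes a direction past the threshold, and the gene lists. Cells, lists and alternatives were chosen with earlier results of these data known, and lists of the other cell types were included. Sequences are from GENCODE M21 and RefSeq. Values of some genes are not reported here.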

Additional observations from a re-analysis of the deposited data

How the results depend on the processing

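The direction of the 3 share differences (B20-4.1.1 minus isotype) was the same under all 11 alternatives of each. With a floor of 2500 UMIs, a marker minimum of 2 or 5, a mitochondrial limit of 10%, thinning to 1000 UMIs or the pool as the unit, the difference ran from 1.87 to 2.72 points for kept cells, 2.12 to 4.94 for B plus T cells and 2.39 to 4.31 for non-epithelial cells, and adjusted p was 0.118 to 0.4, 0.130 to 0.4 and 0.118 to 0.4 (exact permutation). Leaving out each pool gave 1.66 to 3.70, 1.52 to 4.58 and 2.04 to 4.44 points, the highest without pool 3 of B20-4.1.1, the only setting that passed the threshold.

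For the genes summed by tumor, where 0 of 184 passed, the count was 0 with DESeq2 size factors, with a marker minimum of 5 and with the pool as a random block, 2 with DESeq2, 4 without a filter (Igha, Jchain, Igkc and Igkv10-96, the genes of the IgA cell), 2 without both singular cells (mt-Co3 and mt-Atp6, chosen after seeing the data) and 0 to 2 when a pool was left out, the 2 without B20-4.1.1 pool 1 being mt-Co3 and Gm42418, while the fit without isotype pool 1 had a single isotype tumor of 6 B cells. For pool sums, where 1 of 2980 passed, it was 0 with DESeq2, 0 with its size factors, 0 with a marker minimum of 5, 130 without a filter, 70 at 2500 UMIs (where 1 isotype pool was left against 2), 1 without both singular cells and 2 to 107 when a pool was left out. Leaving out a pool leaves 1 on a side, whose spread is assumed to equal that of the other side: 62 genes were called without isotype pool 1, 107 without isotype pool 2, 2 without B20-4.1.1 pool 1 and 3 without B20-4.1.1 pool 2. Genes of the lists were 16 of the calls without a filter, as given above, among them H2-Aa, Cd74, Ebf1, Igha, Igkc and Jchain. The last 3 are genes of the IgA cell. That cell held 99.2% of the Igha, 99.3% of the Jchain and 40.3% of the Igkc UMIs of the B cells. The cause of the changes in count was not tested. At 2500 UMIs the tumor sums left no isotype tumor with 3 B cells, and at least 10 B cells left none either, so neither was run, and pool 3 of B20-4.1.1 entered no gene test. No paired analysis was possible because the labels give no number that ties an isotype pool to a B20-4.1.1 pool. Depth limits the isotype side most, with 17 B cells and 35371 UMIs in all.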

Other observations

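Markers of B cell stages that no comparison above used were also counted. Rag1, Dntt and Igll1, genes of B cell precursors, had 0 UMIs in the 329 cells. Of the interferon response list, 11 of 12 genes had a UMI and 3 were higher in B than in T cells. Of 20 hypoxia response genes, 10 were higher in B than in T cells. Over all 11931 genes with a UMI in B cells, 52.0% were higher in B than in T cells. Of the same 20 genes, 3 were higher in B than in epithelial cells, a count for which no share over all genes was taken. Vegfa, the ligand that B20-4.1.1 binds, had 5 UMIs in 2 B cells.

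Of the activation and costimulation list, 13 of 14 genes were higher in B than in T cells, beside 52.0% of all genes with a UMI in B cells. At least 10-fold higher were 4 of the 14, beside 4.90% of all genes. The list summed to 5949 CPM in B cells, 3130 in T cells and 6835 in macrophages. Cd83 was at 454 CPM against 8.19, Cd40, the receptor for T cell help, at 129 against 1.11, and Icosl at 82.4 against 4.06, while Cd80 had 1 UMI. Of the regulatory or inhibitory list, Btla was at 94.8 CPM, Fcrl1 at 158 and Cd274 at 36.1. The 61 cells left out for a Cd3 UMI lay in 5 B20-4.1.1 tumors, 31 of them in tumor 3 of pool 1, 8 in tumor 1 of pool 2 and 19 in tumor 3 of pool 2.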
